A study of Mus musculus with 32 samples.

Results

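The change of the genotype difference between 1.5 and 4 months of age was measured in the tibialis anterior, a fast muscle of the lower leg, of Gaa-/- mice and wild-type (WT) mice. For every gene the difference Gaa-/- minus WT at 1.5 months was subtracted from the same difference at 4 months, so a positive value means that the gene stood higher in Gaa-/- muscle, relative to WT, at the later age. The comparison used 16 of the 32 arrays of the series and all 19291 genes measured by a probe set with 1 gene symbol, out of 20079 probe sets. The 4 groups were WT at 1.5 months, Gaa-/- at 1.5 months, WT at 4 months and Gaa-/- at 4 months, with 4 animals and 1 array per animal in each. The genotype of the Gaa-/- mice is labelled GAA-KO 6neo/6neo, with no further allele or treatment named, and all mice of both genotypes are labelled as strain B6/129. The sex of the animals is not labelled. The question is which effects of the lost enzyme appear, grow or fade while the muscle matures.

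Gaa encodes acid alpha-glucosidase, the enzyme that breaks down glycogen inside lysosomes, and its loss causes Pompe disease, in which glycogen-filled lysosomes accumulate in muscle fibres. Limb muscle of the mouse is still maturing in the first months after weaning, when fast fibres take on their adult contractile and metabolic genes. A difference between genotypes can therefore change with age because WT muscle moves and Gaa-/- muscle does not, because Gaa-/- muscle moves and WT muscle does not, or because both move.

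Levels are log2 values of microarray signal, so 1 unit is a factor of 2. Estimates are given ± standard error from a limma model, and p-values are two-sided, with a call made where the Benjamini-Hochberg adjusted p over all 19291 genes was under 0.05. Arrays of a group correlated at 0.980 to 0.991 across probe sets, any 2 of the 16 arrays at 0.968 or more, and the medians of the arrays ran from 5.66 to 5.82. All 10 genes that define fast limb muscle, such as Ckm and Myh4, had a mean above the lowest array median of 5.66 in at least 1 of the 4 groups, whereas 9 of 9 neutrophil genes, 7 of 8 T cell genes and 8 of 10 neuron genes had a mean below it in all 4 groups. Arrays are numbered below by the replicate number of their label. The spread of the values within an array was 1.93 ± 0.04 (SD, n = 4) in WT and 1.93 ± 0.04 in Gaa-/- at 1.5 months, then 1.97 ± 0.05 and 1.99 ± 0.04 at 4 months. Array values come from whole muscle, in which fewer cells of a type and less RNA per cell cannot be told apart.

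Gaa itself checked the labels. The levels of Gaa in the WT arrays were 10.28, 10.25, 10.09 and 10.55 at 1.5 months and 10.61, 10.63, 10.36 and 10.53 at 4 months. In the Gaa-/- arrays they were 6.63, 6.55, 6.55 and 6.69 at 1.5 months and 6.70, 6.87, 7.11 and 7.25 at 4 months. The genotypes did not overlap at either age, and an exact two-sided permutation test gave its lowest possible p for 4 against 4 arrays, 0.0286, at both ages. Gaa was 12.9-fold lower in Gaa-/- at 1.5 months and 11.7-fold lower at 4 months, and the change of the difference was 0.14 ± 0.18 (95% interval -0.23 to 0.51, adjusted p = 0.994). Where the Gaa probes lie relative to the disrupted part of the gene was not given in the labels.

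The genotype difference changed for 9 of the 19291 genes (0.0467%), upward for 3 (0.0156%) and downward for 6 (0.0311%). Mybph, Serpina3n and Angptl7 moved upward in Gaa-/- relative to WT, and Slc15a5, Mss51, 1700001O22Rik, Aqp4, Ampd1 and Dusp10 moved downward. For 4 genes the genotype difference appeared, meaning that it was called at 4 and not at 1.5 months. For 3 genes it grew, being called at both ages with the same sign and a larger size at 4 months. For 2 genes it was called at 1.5 and no longer at 4 months. No called gene had a difference that shrank or reversed while being called at both ages. Within each genotype, 6 of the 9 genes changed with age in WT and were not called in Gaa-/-, and the other 3 changed with age in Gaa-/- and were not called in WT. The unequal change of the genotypes is in each case what the difference of differences tests.

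**Figure D1:**
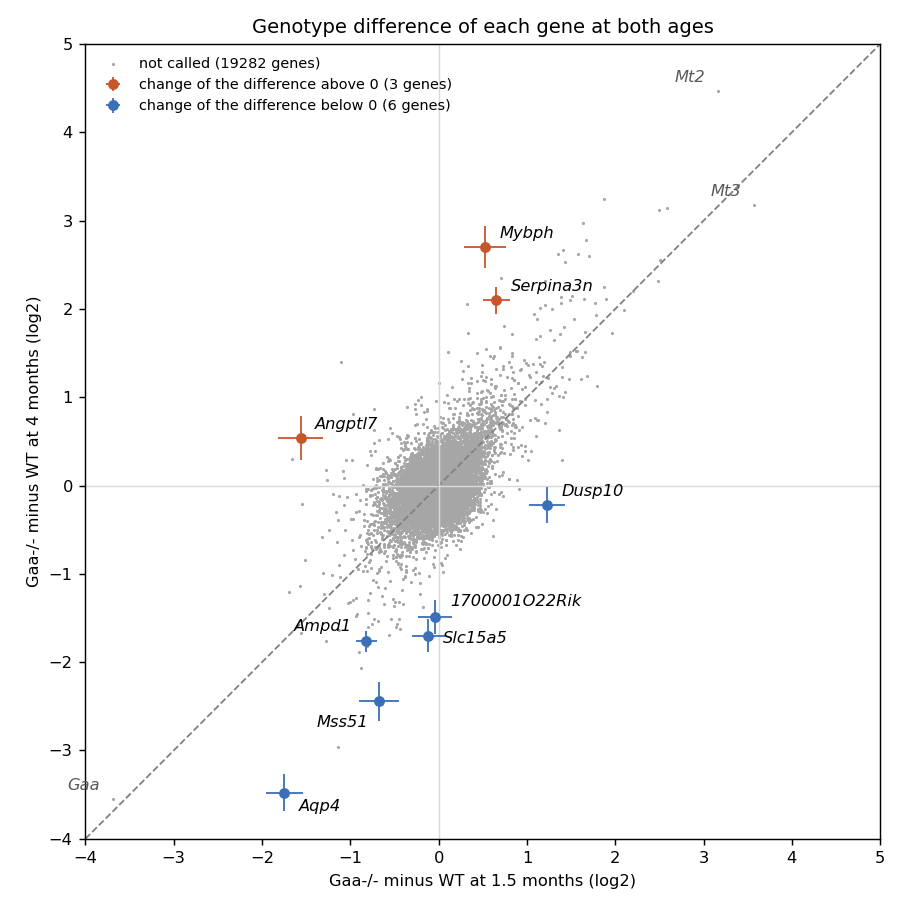
Genotype difference of each gene (Gaa-/- minus WT, log2) at 1.5 months on the horizontal axis and at 4 months on the vertical axis, with grey points for the 19282 genes not called, coloured points with standard errors for the 9 called genes, and a dashed line where both differences are equal. The 3 genes called upward lie above the line and the 6 called downward lie below it. Gaa and Mt3, named in grey, lie close to the line at -3.69 and 3.58 on the horizontal axis. Mt2, also named in grey and not called, lies above the line at 3.16 on the horizontal and 4.47 on the vertical axis.

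The test called few genes and could see only large changes. At the median standard error of 0.22, a change of 1.12 would have been called, and the smallest called was 0.95 in size. Of 74 genes with a change of 1 or more in size, 8 were called. At an unadjusted p under 0.05 there were 1201 genes. The number of calls ranged from 5 without Gaa-/- array 3 of 4 months to 44 when arrays were weighted by their quality. The 6 downward calls became 2 without that array and 3 without WT array 1 of 4 months or Gaa-/- array 1 of 1.5 months. Serpina3n, Mybph, Slc15a5, Angptl7 and Aqp4 were called under all 25 alternatives tried, with adjusted p at or below 0.032.

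The genes whose difference appeared by 4 months were 1 that fell and 3 that rose in maturing WT muscle, and the sequences just upstream of their starts are shown before their values. These are the 250 bases before the annotated start of each gene, 5′ to 3′ on the strand of the gene, from RefSeq for GRCm38.p6. Of the 9 called genes, 7 had an entry in that promoter table. For 1700001O22Rik there were 2 entries, of which 1 is shown and described. Capitals mark matches to the E-box, CANNTG on either strand, which myogenic factors such as MyoD and myogenin are known to bind.
Mybph: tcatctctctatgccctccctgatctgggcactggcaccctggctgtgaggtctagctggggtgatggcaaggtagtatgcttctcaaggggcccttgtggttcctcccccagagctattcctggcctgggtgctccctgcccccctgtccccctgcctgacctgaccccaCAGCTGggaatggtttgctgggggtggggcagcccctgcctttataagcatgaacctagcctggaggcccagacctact
Slc15a5: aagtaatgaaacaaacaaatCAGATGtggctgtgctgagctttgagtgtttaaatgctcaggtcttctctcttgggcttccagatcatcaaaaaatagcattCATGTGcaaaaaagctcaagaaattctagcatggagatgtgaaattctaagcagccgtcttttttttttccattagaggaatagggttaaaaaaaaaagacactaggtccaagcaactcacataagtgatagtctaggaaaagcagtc
Mss51: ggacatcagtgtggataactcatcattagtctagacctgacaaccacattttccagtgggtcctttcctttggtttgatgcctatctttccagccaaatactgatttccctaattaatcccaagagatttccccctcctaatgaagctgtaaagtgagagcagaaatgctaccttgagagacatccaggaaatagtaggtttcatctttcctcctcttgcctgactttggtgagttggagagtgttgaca
1700001O22Rik: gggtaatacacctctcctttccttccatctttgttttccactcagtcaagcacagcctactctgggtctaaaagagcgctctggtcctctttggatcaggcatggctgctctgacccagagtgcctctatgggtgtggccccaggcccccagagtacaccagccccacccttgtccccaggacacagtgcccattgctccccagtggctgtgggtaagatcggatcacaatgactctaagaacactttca
The windows lie at chr1:134193198-134193447 on the plus strand (Mybph), chr6:138079917-138080166 on the minus strand (Slc15a5), chr14:20496902-20497151 on the minus strand (Mss51) and chr2:30803665-30803914 on the minus strand (1700001O22Rik). Mybph held 1 E-box match, starting 79 bases before the start of the gene, Slc15a5 held 2, and Mss51 and 1700001O22Rik held 0. Such a match is common, being present in 66.0% of the 27025 promoter windows of the table. The MEF2 motif of muscle genes, in 0.518% of the windows, and the CArG box of serum response factor, in 1.40%, were matched in none of the 7 windows, which says only that these letters are not there. Motif matches are a description of the sequence, and their part in the levels was not tested.

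Mybph encodes myosin-binding protein H, a protein of the thick filament. The levels of Mybph in the WT arrays were 7.99, 8.60, 8.52 and 9.46 at 1.5 months and 5.59, 5.72, 5.53 and 5.41 at 4 months. In the Gaa-/- arrays they were 8.99, 8.92, 9.45 and 9.31 at 1.5 months and 7.94, 8.32, 8.07 and 8.72 at 4 months. The genotypes overlapped at 1.5 months and stood more than 2 units apart at 4 months, after a large decline in WT. From 1.5 to 4 months Mybph fell 8.44-fold in WT (log2 -3.08 ± 0.24, adjusted p = 7.32e-10), while the change in Gaa-/- was -0.90 ± 0.24 (adjusted p = 0.0515). The genotype difference was 0.52 ± 0.24 at 1.5 months (adjusted p = 0.293) and 2.70 ± 0.24 at 4 months (6.49-fold higher, adjusted p = 1.09e-09), so it changed by 2.17 ± 0.33 (95% interval 1.50 to 2.85, adjusted p = 0.00264). The mean of 5.56 in WT at 4 months is below the lowest array median, so folds against it are best read as lower bounds. In animals of later ages the difference was 2.10 ± 0.24 at 6 months and 0.96 ± 0.24 at 9 months, both called, with WT at 5.83 ± 0.51 and 6.23 ± 0.24 (SD, n = 4) and Gaa-/- at 7.93 ± 0.39 and 7.19 ± 0.08.

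Slc15a5 encodes a solute carrier of the peptide transporter family. WT arrays held 6.90, 6.88, 6.92 and 6.76 at 1.5 months and 8.73, 9.12, 8.43 and 9.02 at 4 months, and Gaa-/- arrays 6.93, 6.64, 6.99 and 6.43 and then 7.31, 6.92, 6.95 and 7.32. Only the 4 WT arrays of 4 months stood apart, all above 8.4. Slc15a5 rose 3.89-fold in WT (log2 1.96 ± 0.19, adjusted p = 1.34e-07), and the change in Gaa-/- was 0.38 ± 0.19 (adjusted p = 0.344). The genotype difference went from -0.12 ± 0.19 to -1.70 ± 0.19, a change of -1.58 ± 0.27 (adjusted p = 0.0067). The later arrays had the same sign, with -2.03 ± 0.19 at 6 months and -2.47 ± 0.19 at 9 months, and WT means of 8.87 ± 0.16 and 8.82 ± 0.23 close to that of 4 months.

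Mss51 encodes a muscle protein linked to mitochondrial metabolism. WT arrays held 9.62, 9.46, 9.41 and 9.22 at 1.5 months and 10.98, 10.65, 10.88 and 11.15 at 4 months, and Gaa-/- arrays 9.27, 8.14, 9.00 and 8.59 and then 8.58, 8.79, 8.20 and 8.33. The Gaa-/- arrays of both ages shared 1 range, between 8.14 and 9.27, while WT moved to 10.65 or more. Mss51 rose 2.81-fold in WT (log2 1.49 ± 0.22, adjusted p = 0.000241), and Gaa-/- differed by -0.28 ± 0.22 between the ages (adjusted p = 0.576). The genotype difference was -0.68 ± 0.22 at 1.5 months (adjusted p = 0.0953) and -2.44 ± 0.22 at 4 months, a change of -1.77 ± 0.32 (adjusted p = 0.0122). Its call was lost without Gaa-/- array 1 of 1.5 months (adjusted p = 0.0508) and without Gaa-/- array 3 of 4 months (adjusted p = 0.0561). At 6 and 9 months the difference was -2.24 ± 0.22 and -2.30 ± 0.22.

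1700001O22Rik is a protein-coding gene known by its RIKEN clone name. WT arrays held 5.81, 5.76, 6.10 and 5.60 at 1.5 months and 7.41, 7.03, 6.87 and 7.21 at 4 months, and Gaa-/- arrays 5.89, 5.31, 5.77 and 6.14 and then 6.12, 5.56, 5.35 and 5.54. The 4 WT arrays of 4 months were again the ones that stood apart, all above 6.8. The gene rose 2.48-fold in WT (log2 1.31 ± 0.19, adjusted p = 0.000199), and the change in Gaa-/- was -0.14 ± 0.19 (adjusted p = 0.762). The genotype difference went from -0.04 ± 0.19 to -1.49 ± 0.19, a change of -1.45 ± 0.27 (adjusted p = 0.0195), and was -0.81 ± 0.19 at 6 and -0.93 ± 0.19 at 9 months, called at both. The mean of 5.64 in Gaa-/- at 4 months is below the lowest array median. Leaving out any 1 of 7 arrays lost the call, with adjusted p of 0.0565 to 0.0907: WT array 4 of 1.5 months, WT array 1 of 4 months, Gaa-/- arrays 1 and 4 of 1.5 months, and Gaa-/- arrays 2, 3 and 4 of 4 months.

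**Figure D2:**
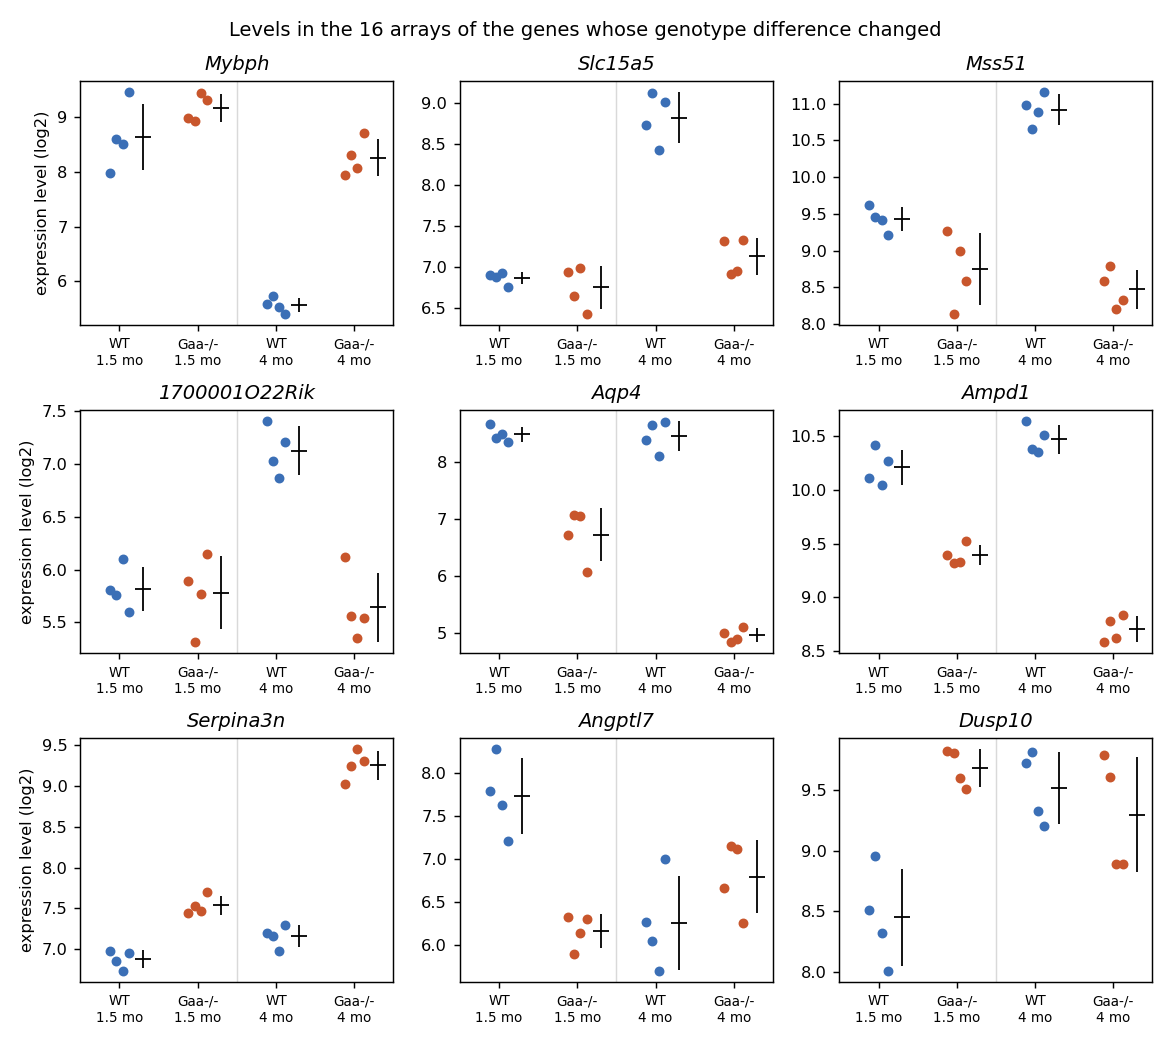
Levels (log2, vertical axis, scaled per gene) of the 9 called genes in the 16 arrays, with WT in blue and Gaa-/- in orange, 1 point per array, and a black mark with a bar for the mean and SD of each group of 4. In Slc15a5, Mss51 and 1700001O22Rik the WT arrays of 4 months stand alone at the top, in Mybph they stand alone at the bottom, and in Aqp4, Ampd1 and Serpina3n the Gaa-/- arrays leave the WT range at 1.5 months and move further from it at 4 months.

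In the 3 genes whose difference grew, Gaa-/- muscle moved away from a WT level that was not called with age. Aqp4 encodes aquaporin 4, the water channel in the membrane of fast fibres. The levels of Aqp4 in the WT arrays were 8.66, 8.41, 8.49 and 8.34 at 1.5 months and 8.37, 8.63, 8.10 and 8.69 at 4 months. In the Gaa-/- arrays they were 6.72, 7.06, 7.05 and 6.07 at 1.5 months and 5.02, 4.85, 4.91 and 5.12 at 4 months. The genotypes were already apart at 1.5 months, and the Gaa-/- arrays of 4 months lay below all those of 1.5 months. Aqp4 fell 3.38-fold in Gaa-/- (log2 -1.75 ± 0.21, adjusted p = 7.47e-06), against -0.03 ± 0.21 in WT (adjusted p = 0.983). The genotype difference of -1.75 ± 0.21 at 1.5 months thus became -3.48 ± 0.21 at 4 months, a change of -1.73 ± 0.29 (adjusted p = 0.0067). The Gaa-/- mean of 4.97 at 4 months is below the lowest array median, so the 11.1-fold difference is best read as a lower bound. Gaa-/- stayed at 4.95 ± 0.26 at 6 and 4.82 ± 0.16 at 9 months (SD, n = 4), while the WT mean was 8.44 ± 0.44 and then 7.68 ± 0.43.

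Ampd1 encodes the muscle form of AMP deaminase, which converts AMP to IMP during hard contraction. WT arrays held 10.11, 10.41, 10.05 and 10.27 at 1.5 months and 10.65, 10.38, 10.35 and 10.51 at 4 months, and Gaa-/- arrays 9.40, 9.32, 9.33 and 9.53 and then 8.58, 8.78, 8.63 and 8.84. All 8 Gaa-/- arrays were below all 8 WT arrays, and the Gaa-/- arrays of 4 months were the lowest. Ampd1 fell 1.61-fold in Gaa-/- (log2 -0.69 ± 0.12, adjusted p = 0.00318), and the WT change was 0.26 ± 0.12 (adjusted p = 0.521). The difference went from -0.82 ± 0.12 to -1.77 ± 0.12, a change of -0.95 ± 0.17 (adjusted p = 0.0158). It was lost without WT array 1 of 4 months (adjusted p = 0.075) and without Gaa-/- array 3 of 4 months (adjusted p = 0.0582). At 6 and 9 months the difference was -1.59 ± 0.12 and -1.14 ± 0.12.

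Serpina3n encodes a secreted inhibitor of serine proteases. WT arrays held 6.98, 6.86, 6.74 and 6.96 at 1.5 months and 7.20, 7.16, 6.98 and 7.30 at 4 months, and Gaa-/- arrays 7.44, 7.53, 7.46 and 7.71 and then 9.03, 9.24, 9.45 and 9.30. Gaa-/- was above WT at both ages without overlap, by less than 1 unit at 1.5 months and by about 2 at 4 months. Serpina3n rose 3.29-fold in Gaa-/- (log2 1.72 ± 0.16, adjusted p = 2.92e-08), and WT changed by 0.28 ± 0.16 (adjusted p = 0.612). The difference of 0.65 ± 0.16 became 2.10 ± 0.16, a change of 1.44 ± 0.22 (95% interval 0.99 to 1.89, adjusted p = 0.00264), and was 2.21 ± 0.16 at 6 and 2.44 ± 0.16 at 9 months.

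Angptl7 and Dusp10 had a genotype difference at 1.5 months that was no longer called at 4 months, after a change in WT. Angptl7 encodes a secreted angiopoietin-like protein. The levels of Angptl7 in the WT arrays were 7.79, 8.27, 7.63 and 7.21 at 1.5 months and 6.27, 6.04, 5.70 and 7.0 at 4 months. In the Gaa-/- arrays they were 6.32, 5.89, 6.14 and 6.30 at 1.5 months and 6.66, 7.14, 7.11 and 6.25 at 4 months. The genotypes were apart at 1.5 months and overlapped at 4 months, when every WT array was lower than the WT arrays of 1.5 months. Angptl7 fell 2.77-fold in WT (log2 -1.47 ± 0.25, adjusted p = 0.00151), and Gaa-/- differed by 0.63 ± 0.25 (adjusted p = 0.232). The difference went from -1.56 ± 0.25 (adjusted p = 0.000121) to 0.54 ± 0.25 (adjusted p = 0.279), a change of 2.10 ± 0.36 (adjusted p = 0.0067). At 6 months it was 0.05 ± 0.25 and at 9 months -0.70 ± 0.25, called at neither.

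Dusp10 encodes a phosphatase of the stress-activated kinases p38 and JNK. WT arrays held 8.51, 8.96, 8.32 and 8.01 at 1.5 months and 9.72, 9.81, 9.33 and 9.20 at 4 months, and Gaa-/- arrays 9.82, 9.80, 9.59 and 9.51 and then 9.79, 9.61, 8.89 and 8.89. The WT arrays of 1.5 months were all below 9, and those of 4 months were within the range of Gaa-/-. Dusp10 rose 2.09-fold in WT (log2 1.06 ± 0.21, adjusted p = 0.00621), and the change in Gaa-/- was -0.39 ± 0.21 (adjusted p = 0.376). The difference of 1.23 ± 0.21 became -0.22 ± 0.21, a change of -1.45 ± 0.29 (adjusted p = 0.0473), and was 0.32 ± 0.21 at 6 and -0.07 ± 0.21 at 9 months. Dusp10 is the least firm of the 9 calls: it held in 13 of 25 alternatives. It was lost when only the 16 arrays were fitted (adjusted p = 0.108), after a second quantile normalization (0.0712), and, with adjusted p of 0.0752 to 0.177, without any 1 of 10 arrays, namely WT arrays 1, 3 and 4 of 1.5 months, WT arrays 1 and 2 of 4 months, Gaa-/- arrays 1, 2 and 3 of 1.5 months, and Gaa-/- arrays 3 and 4 of 4 months.

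**Figure D3:**
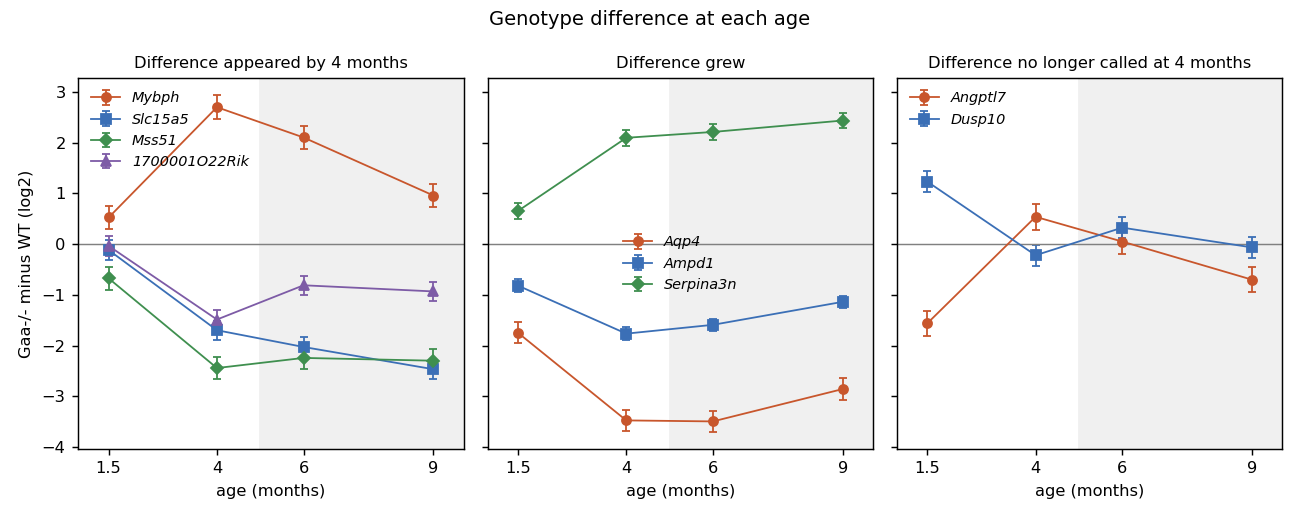
Genotype difference (Gaa-/- minus WT, log2, with standard error) of the 9 called genes at 1.5, 4, 6 and 9 months, with the shaded ages outside the comparison and measured in other animals. All 7 genes whose difference appeared or grew kept its sign at 6 and 9 months, whereas Angptl7 and Dusp10 lay between -0.70 and 0.32 at those ages.

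The arrays of 6 and 9 months share no animal with the comparison. The 4 genes whose difference appeared and the 3 whose difference grew had, at both later ages, a called difference of the sign seen at 4 months. Over all genes, 738 of 19291 were called with that sign at both later ages. Genes called at 4 months are a closer comparison, since these genes were themselves called at that age, but not a matched one. The sets below contain these genes. Each of these genes differed more at 4 months than the set medians of 0.58 and 0.75 in size. Of the 678 genes called at 4 and not at 1.5 months, 241 were called with that sign at both later ages. Of the 421 called at both 1.5 and 4 months, 294 were. By sign alone, 63.2% of all genes had the sign of 4 months at 6 months and 65.3% at 9 months.

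The next 20 genes by p did not pass the test, with adjusted p from 0.0697 to 0.112, and 9 had a positive and 11 a negative value. Padi2, a peptidylarginine deiminase, had the smallest p among them: its difference was 0.62 ± 0.17 at 1.5 months and -0.57 ± 0.17 at 4 months, both called with opposite signs, and the change was -1.19 ± 0.25 (adjusted p = 0.0697). Mettl21c, a lysine methyltransferase gene of muscle, had the largest value of the 20 in size, -1.82 ± 0.41 (adjusted p = 0.105), between -1.14 and -2.96. Ncam1, a cell adhesion molecule re-expressed on denervated fibres, had 1.71 ± 0.14 at 1.5 months and 2.60 ± 0.14 at 4 months (change 0.90 ± 0.20, adjusted p = 0.0966). Smco1, Ky and Pde4a had changes of -0.79 ± 0.18, -0.93 ± 0.20 and -0.87 ± 0.20. Slc39a10, a zinc importer, had 1.0 ± 0.21, with a difference of -0.13 ± 0.15 at 1.5 months and 0.86 ± 0.15 at 4 months. Gpnmb, a glycoprotein of lysosome-loaded macrophages, had 1.24 ± 0.29, Cyfip2, of an actin-regulating complex, 1.15 ± 0.27, and Retreg1, a receptor for autophagy of the endoplasmic reticulum, 1.16 ± 0.27. The other 10 were Plpp7, BC025920, Hjv, Ldlrad3, Raver2, Plekha6, Plin4, Apaf1, Pkp4 and Slc43a3. Of the 20, Padi2 was called in 7 of the 25 alternatives, Ky and Mettl21c in 6 each.

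The metallothioneins, small metal-binding proteins, had some of the largest genotype differences at both ages, and none passed the test for a change. Mt1 was 3.18-fold higher in Gaa-/- at 1.5 months and 6.87-fold higher at 4 months. WT arrays held 9.68, 9.35, 9.29 and 10.41 at 1.5 months and 9.12, 9.05, 9.00 and 8.98 at 4 months, and Gaa-/- arrays 11.42, 11.25, 11.52 and 11.22 and then 11.88, 11.48, 12.03 and 11.87. Gaa-/- was above WT without overlap at both ages, and the change of the difference was 1.11 ± 0.26 (95% interval 0.58 to 1.65, adjusted p = 0.114). Mt2 went from a difference of 3.16 ± 0.28 to 4.47 ± 0.28 (change 1.31 ± 0.40, adjusted p = 0.356), with WT arrays of 1.5 months spread from 7.63 to 9.62. Mt3 went from 3.58 ± 0.18 to 3.18 ± 0.18 (change -0.40 ± 0.26, 95% interval -0.93 to 0.13, adjusted p = 0.920), and its WT means of 5.16 and 5.01 are below the lowest array median.

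Counts of genes called at each age gave a wider picture than the test of the change allows. At 1.5 months 700 genes differed between genotypes (3.63%), 401 higher (2.08%) and 299 lower (1.55%) in Gaa-/-. At 4 months 1099 genes differed (5.70%), 656 higher (3.40%) and 443 lower (2.30%). Between the ages 88 genes changed in WT (0.456%), 56 higher (0.290%) and 32 lower (0.166%), and 205 changed in Gaa-/- (1.06%), 138 higher (0.715%) and 67 lower (0.347%). In the later animals 1226 genes differed at 6 months (6.36%, with 3.57% higher and 2.79% lower) and 2299 at 9 months (11.9%, with 8.12% higher and 3.80% lower). The genotype count at 1.5 months was 456 without Gaa-/- array 1 of that age. The Gaa-/- count with age was 79 without array 3 and 125 without array 4 of Gaa-/- at 1.5 months, and it was 466, 120, 90 and 123 without array 1, 2, 3 or 4 of Gaa-/- at 4 months. The WT count with age was 53 without WT array 4 of 1.5 months, and 57, 54 and 151 without WT array 1, 2 or 3 of 4 months.

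Most genes that crossed the threshold between the ages were not shown to change. Of 678 genes called at 4 and not at 1.5 months, 4 passed the test of the change and 607 had the same sign at both ages, with a median size of 0.26 at 1.5 and 0.58 at 4 months. In the later animals 651 of them (96.0%) had the sign of 4 months at 6 months and 625 (92.2%) at 9 months, and 345 (50.9%) and 348 (51.3%) were called with that sign, against 6.14% and 10.4% of all genes. At 9 months 3 were called with the opposite sign, against 289 of all 19291 genes. By sign alone, 63.2% and 65.3% of all genes had the sign of 4 months at 6 and 9 months. Of 279 genes called at 1.5 and not at 4 months, 2 passed the test and 246 had the same sign at both ages. At 6 months 232 of these (83.2%) had the sign of 1.5 months and 46 (16.5%) were called with it. At 9 months 196 (70.3%) had it and 60 (21.5%) were called with it, while 15 were called with the opposite sign. Of all genes, 59.3% and 57.4% had the sign of 1.5 months at 6 and 9 months, and 5.76% and 9.06% were called with it. At 9 months 551 of all 19291 genes were called with the opposite sign. The sign was the same at 1.5 and 4 months for 12057 of all 19291 genes. Of 421 genes called at both ages, 3 passed the test and 420 had the same sign. For 223 of the 421 the 95% interval of the change lay within 1.5-fold in either direction, and for 356 within 2-fold.

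Among the genes with the largest differences at both ages, Eda2r, a receptor of the TNF receptor family, was 5.70-fold higher at 1.5 and 5.86-fold higher at 4 months, a change of 0.04 ± 0.38 (95% interval -0.73 to 0.81). The uncharacterised gene AI506816 was 4.59-fold and 4.62-fold higher, a change of 0.01 ± 0.24 (95% interval -0.49 to 0.51). Map1a, a microtubule-associated protein, was 5.99-fold and 8.81-fold higher, a change of 0.56 ± 0.20 (adjusted p = 0.600).

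The biology around these genes was described with 39 lists of pathway genes and cell type markers. In the main fit no member of any list was called in the change of the difference, and statements below that none passed refer to that fit. Members called under some of the 25 alternatives included Gpnmb (3), Plin4 (2), and Myoz2, Mstn, Rrad, Mt1, Hspa5 and Nr4a2 (1 each). Over all genes 48.3% of the changes were positive and the median was -0.01, with the middle 50% between -0.16 and 0.14. Lists are therefore given by their counts at each age and by the median change, without a test of the list. Of all genes, 2.08% were called higher and 1.55% lower at 1.5 months, and 3.40% and 2.30% at 4 months. At 6 months these shares were 3.57% and 2.79%, and at 9 months 8.12% and 3.80%. From 1.5 to 4 months, 0.290% of all genes were called higher and 0.166% lower in WT, and 0.715% and 0.347% in Gaa-/-. Of the 19 lists described below with named members, the median change of the regeneration, growth signal, metallothionein, clock, calcium and cytoskeleton lists took both signs over the 25 alternatives, and that of the other 13 kept its sign.

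**Figure D4:**
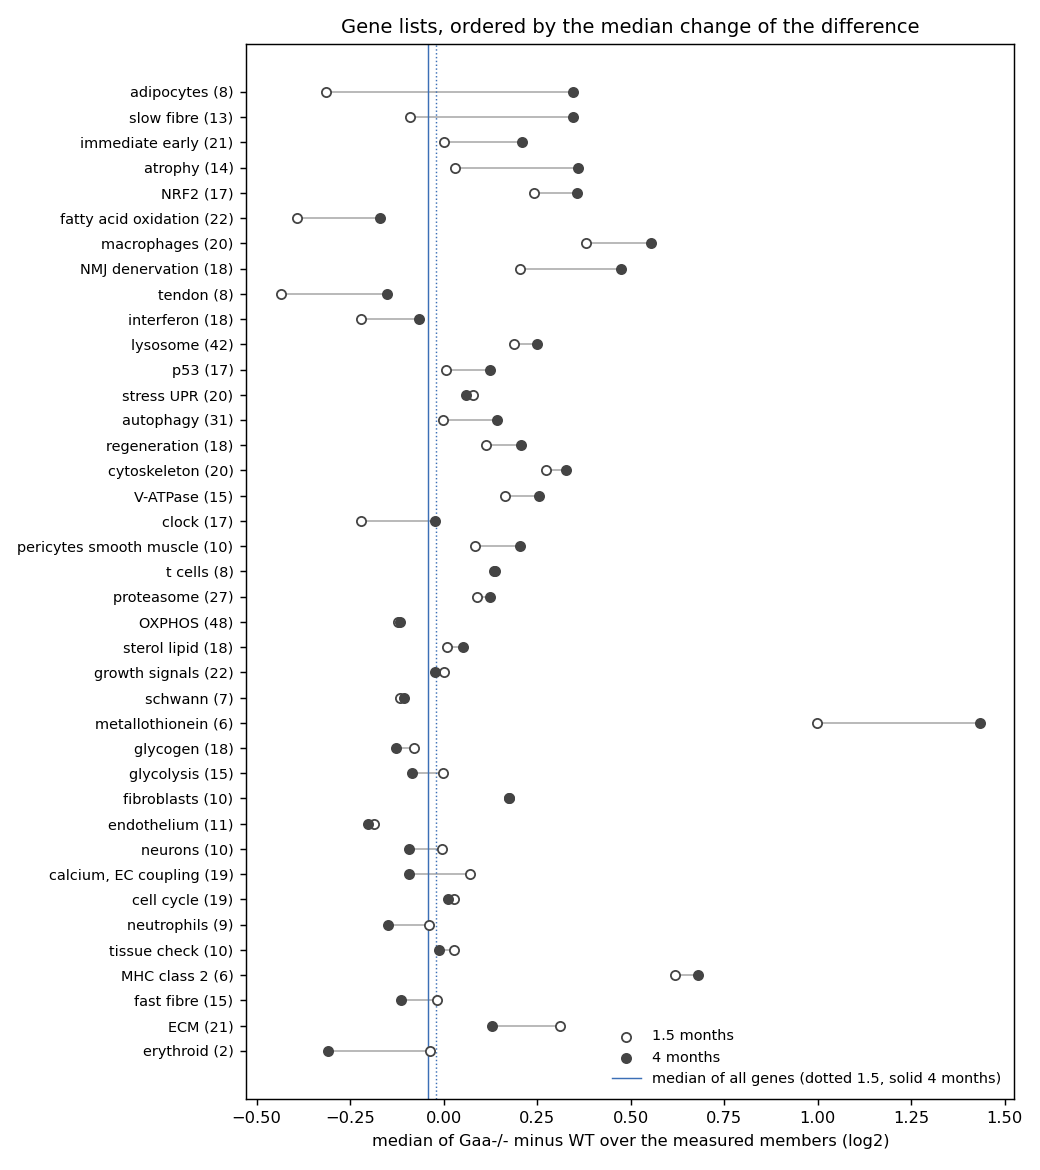
Median genotype difference (Gaa-/- minus WT, log2) over the measured members of each of the 39 gene lists (number in brackets) at 1.5 months (open circles) and 4 months (filled circles), ordered from top to bottom by the median change of the difference, with the medians of all genes as vertical lines. Adipocyte, slow fibre and immediate early genes head the order with median changes of 0.66, 0.56 and 0.41, and extracellular matrix genes stand near its lower end at -0.21.

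Slow fibre genes, which encode the sarcomere and calcium proteins of slow-twitch fibres, had a positive change in 12 of 13 members (92.3%), with a median of 0.56. None was called at 1.5 months and 3 were called higher in Gaa-/- at 4 months. The mean level over the list in each array was 8.32 to 8.56 in WT and 8.18 to 8.40 in Gaa-/- at 1.5 months, and 7.62 to 7.85 in WT and 8.07 to 8.47 in Gaa-/- at 4 months. The WT arrays of 4 months were the low ones. With age 2 members fell in WT, against 0.166% of all genes, and none was called in Gaa-/-. Myoz2, a Z-disc protein of slow fibres, fell in WT (-1.41, adjusted p = 0.000411), was at -0.20 in Gaa-/-, and its difference went from -0.23 to 0.97 (change 1.20 ± 0.31, adjusted p = 0.205). Atp2a2, the slow calcium pump SERCA2, had differences of -0.04 and 0.60 (change 0.64 ± 0.18, adjusted p = 0.294). Csrp3, a muscle LIM protein, had 0.32 and 2.06 (change 1.74 ± 0.86, adjusted p = 0.805), and Myh7, slow myosin, -0.27 and 0.34. Fast fibre genes had a positive change in 2 of 15 members (13.3%) and a median of -0.09, with none called at 1.5 and 3 called lower at 4 months. The fast fibre median was -0.0472 without WT array 4 of 1.5 months, and -0.0579 without Gaa-/- array 3 of 4 months. Actn3, of the fast Z-disc, had -0.07 and -0.51 (change -0.45 ± 0.13, adjusted p = 0.294), and Myoz1 0.00 and -0.31. Myh2, the myosin of type IIa fibres, fell in WT (-1.66, adjusted p = 0.0249) and had a change of 1.36 ± 0.52 (adjusted p = 0.675).

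Immediate early genes, transcription factors and regulators induced within minutes of a stimulus, had a positive change in 19 of 21 members (90.5%), with a median of 0.41. In Gaa-/-, 1 was called higher at 1.5 months and 6 at 4 months. With age 3 rose in Gaa-/-, against 0.715% of all genes, and none was called in WT. The mean level per array was 6.75 to 7.06 in WT and 6.89 to 6.99 in Gaa-/- at 1.5 months, and 6.71 to 6.93 in WT against 7.08 to 7.73 in Gaa-/- at 4 months. The 4 Gaa-/- arrays of 4 months were thus above all other groups and also the most spread. The interval between death and preservation of the muscle is not in the labels. Atf3, also a stress-response factor, rose in Gaa-/- with age (1.32, adjusted p = 0.00861), and its difference went from 0.34 to 1.73 (change 1.39 ± 0.38, adjusted p = 0.258). Myc had -0.26 and 0.81 (change 1.07 ± 0.32, adjusted p = 0.320) and Nr4a2 -0.73 and 0.87 (change 1.60 ± 0.46, adjusted p = 0.304). At 6 months 4 members were called higher, with a median difference of 0.13. At 9 months 3 were called higher and 2 lower, 8 of 21 were positive and the median was -0.06.

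Among genes of innervation and of muscle wasting, none passed the test of the change. Counts at each age are read against all genes, of which 2.08% were called higher at 1.5 and 3.40% at 4 months. Genes of the neuromuscular junction and the denervation response had 5 members called higher and 1 lower of 18 at 1.5 months, and 8 and 1 at 4 months, with a positive change in 13 (72.2%) and a median of 0.18. Musk, the receptor kinase of the junction, had 0.49 and 1.28 (change 0.79 ± 0.22, adjusted p = 0.294), Runx1 0.83 and 1.50, and Sln, sarcolipin, -0.13 and 0.84 (change 0.97 ± 0.29, adjusted p = 0.356). Atrophy genes had 2 of 14 called higher and 1 lower at 1.5 months, and 6 higher at 4 months, with a median change of 0.38, which was 0.224 without Gaa-/- array 3 of 1.5 months. Klf15, a transcription factor of muscle metabolism, was the lower one (-0.90, adjusted p = 0.00252) and had -0.29 at 4 months (change 0.61 ± 0.26, adjusted p = 0.744). Foxo1, which drives atrophy genes, had -0.48 and 0.11 (change 0.59 ± 0.22, adjusted p = 0.620). Trim63, the ubiquitin ligase MuRF1, had 0.69 and 1.25 (change 0.56 ± 0.24, adjusted p = 0.744). Regeneration genes had 2 of 18 called higher and 1 lower at 1.5 months and 4 higher at 4 months, with a median change of 0.04. Actc1, the actin of immature fibres, was lower in Gaa-/- at 1.5 months (-1.20, adjusted p = 0.00128) and at -0.09 at 4 months, after a fall in WT (-1.58, adjusted p = 0.000199). In the list of growth signals the median change was -0.02. Its member Mstn, which encodes the growth inhibitor myostatin, had -0.90 and -1.89 (change -0.99 ± 0.30, adjusted p = 0.347), and its close relative Gdf11 had 1.40 and 0.29 (change -1.11 ± 0.35, adjusted p = 0.378).

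Genes of the extracellular matrix were called higher in Gaa-/- more often at 1.5 than at 4 months, and none passed the test of the change. At 1.5 months 8 of 21 were called higher in Gaa-/-, and at 4 months 1 was. The change was negative in 19 of the 21, with 9.52% positive and a median of -0.21. Single arrays moved this median: it was -0.0956 and -0.122 without Gaa-/- array 1 or 3 of 1.5 months, -0.0966 and -0.137 without WT array 2 or 4 of 1.5 months, and -0.127 without WT array 3 of 4 months. It was -0.326 without Gaa-/- array 4 of 1.5 months, -0.330 without WT array 2 of 4 months and -0.0804 with array weights. With age 9 members fell in Gaa-/-, against 0.347% of all genes, and none was called in WT. The mean level over the list per array was 7.76 to 8.37 in WT and 8.11 to 8.75 in Gaa-/- at 1.5 months, and 7.45 to 7.93 in WT and 7.79 to 8.10 in Gaa-/- at 4 months, so the genotypes overlapped at both ages. Col3a1, a fibrillar collagen, was 1.01 higher at 1.5 months (adjusted p = 0.00147) and 0.29 at 4 months, and fell in Gaa-/- with age (-1.20, adjusted p = 0.00146). The change of its difference was -0.73 ± 0.28 (adjusted p = 0.678). Col6a2, of the collagen VI microfibril, went from 0.73 to 0.16 (change -0.58 ± 0.17, adjusted p = 0.338), Col6a3 from 0.97 to 0.45, and Loxl1, a collagen and elastin cross-linking enzyme, from 1.04 to 0.39 (change -0.65 ± 0.22, adjusted p = 0.478). In the later animals 4 members were called higher at 6 and 7 at 9 months. Markers of fibroblasts had 1 of 10 called higher at each age and a median change of -0.05.

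**Figure D5:**
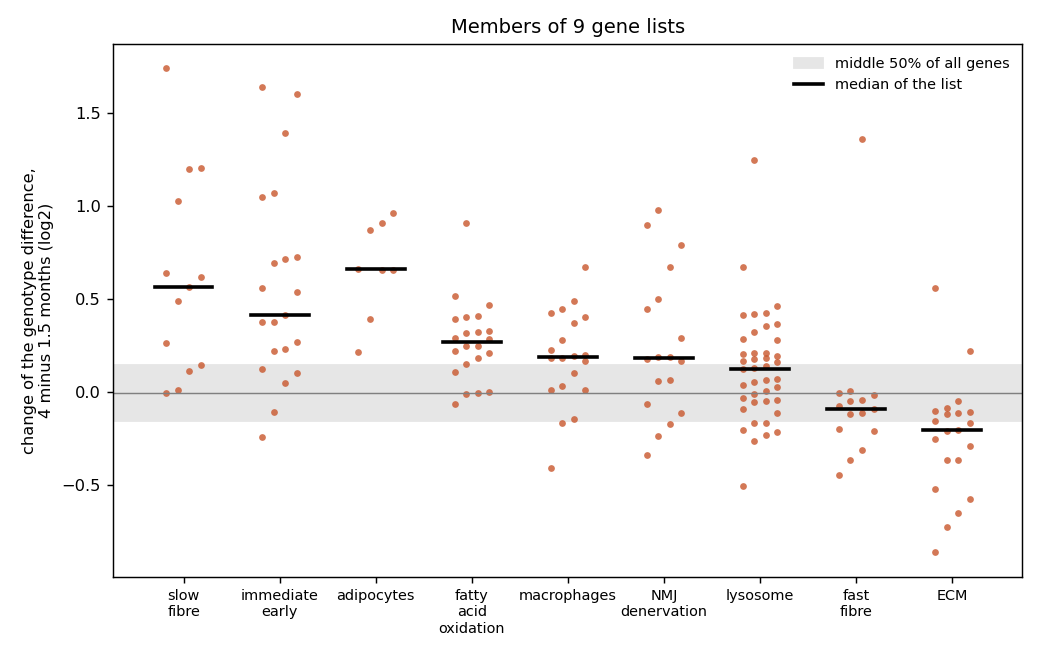
Change of the genotype difference (4 minus 1.5 months, log2) of every measured member of 9 gene lists, 1 point per gene, with the list median as a black bar and the middle 50% of all genes (-0.16 to 0.14) as a grey band. The medians of the slow fibre (0.56), immediate early (0.41), adipocyte (0.66) and fatty acid oxidation (0.27) lists are above the band. Those of the macrophage (0.19) and neuromuscular junction (0.18) lists are also above it. Without 1 array both could fall inside it, to 0.0535 without Gaa-/- array 2 of 4 months and 0.131 without WT array 4 of 1.5 months. The extracellular matrix median (-0.21) is below the band with all arrays, and without 1 array it ran from -0.0956, inside the band, to -0.330. The lysosome (0.12) and fast fibre (-0.09) medians are inside it with all arrays. The lysosome median was above it, at 0.178, without Gaa-/- array 1 of 4 months.

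Of 22 genes that take up and oxidise fatty acids, 8 were called lower in Gaa-/- at 1.5 months and 1 at 4 months. Over all genes the shares called lower were 1.55% and 2.30%. No member passed the test of the change. At 4 months the median difference was still below 0 (-0.17, with 4 members positive). The change was positive in 18 (81.8%), with a median of 0.27. The mean level per array was 9.63 to 9.85 in WT and 9.19 to 9.46 in Gaa-/- at 1.5 months, without overlap, and 9.60 to 9.75 and 9.16 to 9.78 at 4 months, with overlap. Lpl, lipoprotein lipase, had -0.81 (adjusted p = 0.000387) and -0.40 (change 0.41 ± 0.20, adjusted p = 0.801), Hadhb, of the mitochondrial trifunctional protein, -0.66 and -0.14, and Etfdh -0.61 and -0.22. At 6 months 1 member was called lower, against 2.79% of all genes, and at 9 months 7 were called higher, against 8.12%. All 8 measured adipocyte markers had a positive change, with a median of 0.66, and 1 was called higher at 4 months. Plin4, a coat protein of lipid droplets, fell in WT (-0.66, adjusted p = 0.0163) and had differences of -0.17 and 0.69 (change 0.87 ± 0.20, adjusted p = 0.111). Pparg rose in Gaa-/- (0.88, adjusted p = 0.0435), and its change was 0.91 ± 0.31 (adjusted p = 0.522). The mean adipocyte level per array was 6.59 to 7.36 in WT and 6.26 to 6.64 in Gaa-/- at 1.5 months, and 6.44 to 6.87 and 6.60 to 7.16 at 4 months. Adipocyte markers moved with the fatty acid genes between 1.5 and 4 months, 2 of the 8 had a mean below the lowest array median, and their part in those genes was not tested. At 9 months the median difference was -0.12 for adipocyte markers, with 3 of 8 positive. For the fatty acid genes it was 0.33, with 18 of 22 positive. Subunits of oxidative phosphorylation had a median change of -0.02 over 48 members.

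Lysosomal genes, the compartment of the missing enzyme, had 7 of 42 called higher at 1.5 and 10 at 4 months, none lower. The change was positive in 28 (66.7%), with a median of 0.12. That median was 0.0826 without WT array 4 of 1.5 months and 0.178 without Gaa-/- array 1 of 4 months. It was 0.0480 when the spread of each array was a term of the fit. Lgmn, a lysosomal protease, had 0.53 and 0.96, and Lamp2, a membrane protein of lysosomes, -0.06 and 0.35 (change 0.41 ± 0.14, adjusted p = 0.530). Macrophage markers had 4 of 20 called higher at 1.5 and 8 at 4 months, with a positive change in 17 (85.0%) and a median of 0.19. That median was 0.0535 without Gaa-/- array 2 of 4 months, 0.0918 without Gaa-/- array 3 of 1.5 months and 0.123 without WT array 1 of 1.5 months, and 0.309 without WT array 3 and Gaa-/- array 1 of 4 months. The mean macrophage level per array was 5.52 to 5.83 in WT and 5.85 to 6.24 in Gaa-/- at 1.5 months, and 5.68 to 5.76 and 6.15 to 6.59 at 4 months, so the genotypes did not overlap at either age. Ctss, a lysosomal protease of macrophages, had 0.65 and 1.32 (change 0.67 ± 0.30, adjusted p = 0.783). The median changes of the macrophage and lysosomal lists were both positive, and Ctss is in both lists. The part of macrophages in the lysosomal list was not tested. At 6 and 9 months 13 and 14 macrophage markers and 9 and 21 lysosomal genes were called higher. Genes of the V-ATPase had 0 of 15 called at 1.5 and 4 called higher at 4 months, with a median change of 0.03. In the glycogen list the median change was -0.04, with Gbe1, the branching enzyme, at 0.48 and 0.94 (change 0.46 ± 0.16, adjusted p = 0.536) and Pgm1, phosphoglucomutase, at -0.03 and -0.48 (change -0.46 ± 0.13, adjusted p = 0.295).

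Of the genes of stress responses, calcium handling and the cytoskeleton, none passed the test of the change. NRF2 and antioxidant genes had 3 of 17 called higher and 1 lower at 1.5 months and 5 higher at 4 months, with a median change of 0.27. Srxn1, sulfiredoxin, went from 1.29 to 2.0 (change 0.71 ± 0.23, adjusted p = 0.418) and Txnrd1, thioredoxin reductase, from 0.32 to 0.83. The integrated stress and unfolded protein response had 1 of 20 called higher and 1 lower at 1.5 months and 5 and 1 at 4 months, with a median change of 0.10. Hspa5, the chaperone BiP, had -0.13 and 0.54 (change 0.67 ± 0.22, adjusted p = 0.424). Calcium handling and excitation-contraction genes had 3 higher and 3 lower of 19 at 1.5 months and 5 and 4 at 4 months, with a median change of -0.07. Rrad, an inhibitor of calcium channels, went from 1.88 to 3.24 (change 1.36 ± 0.43, adjusted p = 0.378) and rose with age in Gaa-/- (1.67, adjusted p = 0.00341). Tubulins and microtubule-associated proteins had 7 of 20 called higher at each age and, at 4 months, 2 called lower, with a median change of 0.03, and Map1b went from 0.61 to 1.44 (change 0.83 ± 0.22, adjusted p = 0.239).

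Between the ages, 2 of 17 circadian clock genes were called higher and 7 lower in WT, and 3 higher and 6 lower in Gaa-/-. Over all genes these shares were 0.290% and 0.166% in WT, and 0.715% and 0.347% in Gaa-/-. The time of day at which muscles were taken is not in the labels. The median change of the difference was 0.03. Nr1d1, the repressor REV-ERBα, fell in Gaa-/- (-1.30, adjusted p = 6.27e-05) and was at -0.53 in WT, and its difference went from -0.32 to -1.09 (change -0.78 ± 0.25, adjusted p = 0.400). Per2 fell in WT (-1.36, adjusted p = 0.000114) and was at -0.58 in Gaa-/- (change 0.78 ± 0.27, adjusted p = 0.523).

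The remaining lists had median changes between -0.27 and 0.18. The medians were 0.18 for tendon, 0.15 for interferon response, 0.11 for p53 targets, 0.08 for autophagy, 0.02 for pericytes and smooth muscle, 0.02 for T cells and 0.01 for the proteasome. They were -0.02 for sterol and fatty acid synthesis, -0.03 for Schwann cells, -0.03 for the metallothionein list, -0.05 for glycolysis, -0.06 for endothelium, -0.06 for neurons, -0.07 for the cell cycle, -0.07 for neutrophils, -0.09 for MHC class II, -0.09 for the genes defining fast muscle and -0.27 for the 2 measured erythroid genes. MHC class II genes were called higher in 4 of 6 members at each age.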

How the data were processed

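The authors deposited log2 values, 1 per probe set and array, from RNA of tibialis anterior labelled with biotin and read on 1-colour arrays. The submitters' processing notes name RMA and affy. No version, build or filter is given in the sources used here. Arrays carry no read depth, so their number limits the precision.

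Probe sets were named from the platform table: 19291 had 1 symbol, 0 had several and 788 had none and were left out. All 19291 were matched by Entrez number to RefSeq (GRCm38.p6). Values were fitted without a filter in limma 3.58.1 (R 4.3.3), with 1 mean for each of the 8 groups of all 32 arrays, lmFit, contrasts.fit and eBayes (degrees of freedom 24 residual, 6.93 prior). The script was tested on simulated data. Promoters and figures used Python 3.11.15 and matplotlib 3.10.9.

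Named were Gaa, Mt1 to Mt3, all called genes, the next 20 by p, at most 4 members per described list by p, and, chosen after their values were seen, Eda2r and AI506816. The comparison, the members and the lists were chosen with earlier results of these data known. Alternatives were a fit of the 16 arrays alone, a second quantile normalization, median centring, the array spread as a covariate, a filter on genes whose mean was below the lowest array median, a mean-variance trend, array weights, a replicate block and leaving out arrays.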

Additional observations from a re-analysis of the deposited data

Results flagged for a closer look

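The genotype difference itself differed between the ages, by the test of the change, in 9 genes. The changes on the log2 scale were 1.44 for Serpina3n, 2.17 for Mybph, -1.58 for Slc15a5, 2.10 for Angptl7, -1.73 for Aqp4, -1.77 for Mss51, -0.95 for Ampd1, -1.45 for 1700001O22Rik and -1.45 for Dusp10.

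Among the 102 genes named by rule, single arrays stood far from the other 3 arrays of their group (Dixon's test at the 95% level). This was so in 23 of 408 groups of 4 (5.64%), and chance gives such a gap in about 1 group of 20 if genes are independent. The gaps were not spread evenly over the arrays: in Gaa-/- at 1.5 months all but that of Padi2 were in array 3. An effect of single arrays on these gaps was not tested. In WT at 1.5 months these were Gpnmb at 6.42 in array 4 (others 5.73 to 5.78), Naglu at 5.24 in array 3 (others 5.84 to 5.92), Lpl at 10.88 in array 4 (others 10.21 to 10.31), Myh7 at 6.22 in array 2 (others 6.56 to 6.59), Mstn at 8.02 in array 4 (others 8.29 to 8.34), Hspa5 at 10.54 in array 3 (others 10.69 to 10.71) and Rrad at 4.83 in array 4 (others 4.38 to 4.45). In Gaa-/- at 1.5 months these were Padi2 at 8.59 in array 4 (others 9.03 to 9.12), Lpl at 9.30 in array 3 (others 9.68 to 9.74), Myoz2 at 11.34 in array 3 (others 11.84 to 11.90), Actc1 at 10.80 in array 3 (others 9.68 to 9.85), Trim63 at 10.35 in array 3 (others 10.60 to 10.65) and Nqo1 at 6.99 in array 3 (others 7.72 to 7.78). In WT at 4 months these were BC025920 at 6.24 in array 4 (others 5.74 to 5.79), Actc1 at 9.18 in array 2 (others 9.75 to 9.78), Gstm1 at 10.14 in array 1 (others 9.92 to 9.94) and Nr4a2 at 6.53 in array 4 (others 4.60 to 4.87). In Gaa-/- at 4 months these were Naglu at 6.02 in array 2 (others 5.46 to 5.47), Gbe1 at 8.82 in array 4 (others 8.63 to 8.66), Hadhb at 10.13 in array 1 (others 10.88 to 10.99), Klf15 at 6.35 in array 3 (others 5.60 to 5.65), Atf3 at 6.77 in array 2 (others 7.64 to 7.78) and Col6a3 at 8.19 in array 3 (others 8.35 to 8.38).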

How the results depend on the processing

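The 9 calls were recomputed under 25 alternatives, and 5 genes (Serpina3n, Mybph, Slc15a5, Angptl7 and Aqp4) were called in all of them. Mss51 and Ampd1 were called in 23, 1700001O22Rik in 18 and Dusp10 in 13. Over 102 named genes and all alternatives, 2442 values kept their direction and their side of the threshold, 82 gained a call, 23 lost one and 0 reversed. The cause of the differences in counts was not tested, except that the filter tested 10644 genes.

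Counts of called genes are given as total, then by class, where vanished means called at 1.5 months only and reversed means called at both ages with opposite signs. The 16 arrays alone gave 16 calls (7 higher), of which 8 appeared, 6 grew, 1 vanished and 1 reversed. The second quantile normalization gave 10, with 1 vanishing and 1 reversing. With the array spread as a covariate there were 16 (13 lower), with 7 appearing, 5 growing and 1 reversing, and 95 genes changed with age in Gaa-/-. The filter on dim genes gave 32 (12 higher, 20 lower), with 16 appearing, 9 growing, 4 vanishing and 3 reversing, and 171 genes changed with age in WT and 448 in Gaa-/-. The trend gave 26 (11 higher, 15 lower), with 12 appearing, 10 growing and 1 reversing, and 331 changing in Gaa-/-. Array weights gave 44 (15 higher, 29 lower), with 23 appearing, 13 growing, 7 vanishing and 1 reversing. They also gave 1136 genotype calls at 1.5 months, 326 age calls in WT and 1057 in Gaa-/-, and a clock median of 0.127. Median centring gave the same 9 genes.

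Leaving out 1 array at a time, or as an alternative chosen after seeing the data WT array 3 and Gaa-/- array 1 of 4 months together (the lowest array weights, 0.473 and 0.534), gave 5 to 13 calls, 3 to 5 higher and 2 to 8 lower. Of these, 2 to 6 appeared, 2 to 5 grew, 1 to 3 vanished and 0 to 1 reversed. The genotype calls at 1.5 months ran from 456 to 782, the age calls from 53 to 172 in WT and from 79 to 530 in Gaa-/-. List medians ran from -0.144 to -0.0472 for fast fibre, from -0.00652 to 0.135 for regeneration, from 0.224 to 0.439 for atrophy, from 0.0490 to 0.157 for stress and unfolded protein, and from -0.0161 to 0.141 for clock genes. The growth signal median ran from -0.0362 to 0.0262, positive without Gaa-/- array 2 (0.0262) or 3 (0.0198) of 4 months. The calcium median ran from -0.112 to 0.00643, the latter without both arrays named.

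The replicate numbers gave no pairing shared by all 4 groups. Of 24 pairs of same-numbered arrays of different groups, 6 had a correlation of deviations above 0.1, with a range of -0.238 to 0.396. All 6 were of arrays 2 or 3, and none involved Gaa-/- of 4 months. Array 3 of WT at 1.5 months had 0.296 with Gaa-/- of 1.5 months and 0.375 with WT of 4 months, and these last 2 had 0.396. Gaa-/- array 3 of 4 months had -0.238, -0.113 and -0.197 with them. What these arrays share was not tested. With the replicate number as a block, 9 genes were called, the same 9.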
